A study of Mus musculus with 6 samples.

Results

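Alveolar type II and surfactant genes are the genes through which the type II cell of the lung alveolus makes, packages and secretes surfactant. They were taken here as 10 genes (Sftpa1, Sftpb, Sftpc, Sftpd, Slc34a2, Lamp3, Abca3, Napsa, Lyz1 and Nkx2-1) out of 19057 genes named on an Illumina mouse bead array. A member was any probe whose platform gene symbol is on that list, 19 probes in all, and each gene was read from its brightest probe by mean over the arrays. RNA came from antigen presenting cells of the lungs of female C57BL/6 mice, measured on 6 arrays in 3 groups of 2. Wild type (WT) mice kept in room air made up the WT air group. WT mice given cigarette smoke for 4 months made up the WT smoke group, and Spp1-/- mice given smoke over the same time made up the Spp1-/- smoke group. Spp1 encodes osteopontin, a secreted matrix protein and cytokine, and its level is not analysed here, so the genotype label was not checked against it. An air-exposed Spp1-/- group is not analysed here. Neither the age of the mice nor the way the cells were isolated is given in the sources used here. The labels also leave it unsaid whether replicate arrays are different animals, and a p-value here may therefore reflect technical spread alone.

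Surfactant is a film of phospholipid and protein that lowers the surface tension of the air-filled alveolus. Type II cells store it in lysosome-like organelles called lamellar bodies, and alveolar macrophages take up and degrade much of what is secreted. The RNA of the surfactant proteins is a standard marker of type II cells and, for some of these proteins, of secretory cells of the airway. In a preparation of antigen presenting cells it is a readout of epithelial RNA in the sample. Since these are bulk samples, fewer epithelial cells and less of the RNA per epithelial cell cannot be told apart.

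Values are log2 intensities, quantile normalized as deposited, between 6.62 and 16.01 with a median of 7.26 over all probes. Groups were compared with limma over the 12382 genes whose brightest probe had a mean above 7.27, and a gene was called at a Benjamini-Hochberg adjusted p under 0.05. Of the 10 surfactant and type II genes, 9 passed this filter and were tested. Lamp3, with a mean of 7.04, did not. The smallest group mean of a tested member was 7.37, above that filter in every group. Of 24 genes on a list of lung antigen presenting cell markers, 22 were on the array and 20 passed the filter. Ptprc, the common leukocyte antigen CD45, lay between 9.19 and 9.96 on the 6 arrays, Itgax, the CD11c integrin of alveolar macrophages and dendritic cells, between 11.38 and 12.47, and Cd74, the MHC class II invariant chain, between 12.61 and 13.94. The means of Itgam (6.92 to 7.36), the CD11b integrin, and Cd209a (7.05 to 7.34) lay below the filter. Flt3 (7.23 to 7.34) and Xcr1 (7.07 to 7.45), dendritic cell genes of the same list, passed it but lay close to the median of all probes.

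After 4 months of smoke, 7 of the 9 tested surfactant and type II genes were lower in WT cells and none was higher. Sftpa1, Slc34a2 and Sftpc differed most, by 9.54-fold, 8.18-fold and 6.57-fold. Nkx2-1 was 4.19-fold lower, Sftpd 3.60-fold, Sftpb 2.74-fold and Napsa 2.72-fold. Abca3 and Lyz1 did not pass on their brightest probes. Among all 12382 genes, 21.4% were called in this comparison, 10.3% lower and 11.1% higher. The median log2 difference was -1.85 over the 9 tested members and 0.04 over all genes tested. The WT smoke and WT air arrays did not overlap for 8 of the 9 tested members, lower in smoke each time, against 24.8% of all genes lower and 34.8% higher without overlap.

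**Figure D1:**
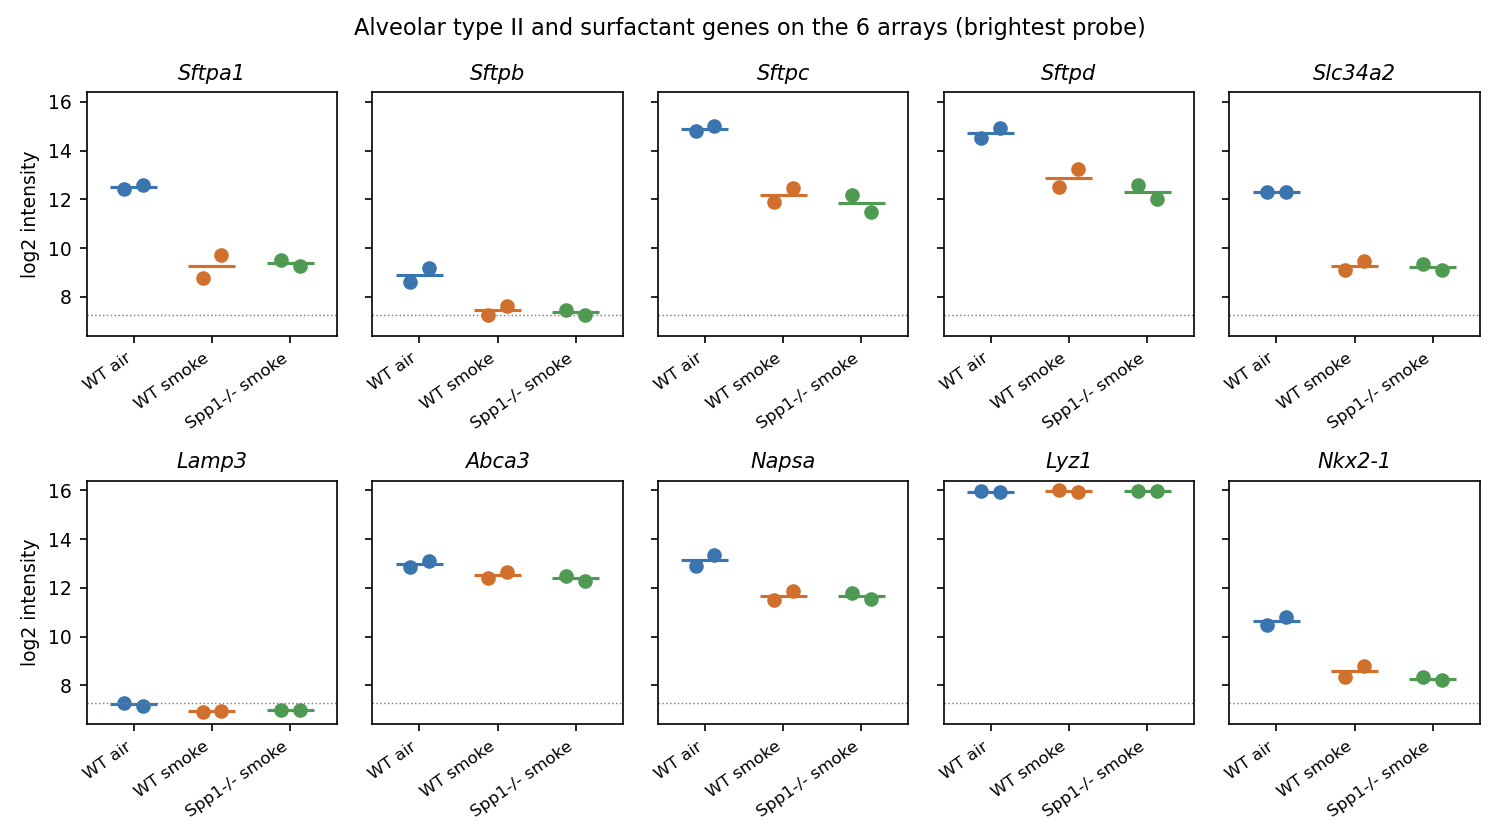
Log2 intensity (y axis) of the brightest probe of each of the 10 genes on the 6 arrays, by group (x axis). Points are arrays, short lines are group means of 2 arrays and the dotted line is the median of all probes (7.26). Values in WT air lay above both smoke groups for every gene but Lyz1, which stayed near the top of the scale.

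The collectins are considered first. Sftpa1 encodes surfactant protein A and Sftpd surfactant protein D, secreted lectins that bind microbes and, for surfactant protein D, take part in surfactant turnover. Sftpa1 stood at 12.42 and 12.58 on the WT air arrays, at 8.78 and 9.71 in WT smoke and at 9.52 and 9.27 in Spp1-/- smoke. All smoke arrays lay well under both air arrays, and the WT smoke arrays differed more from each other (SD 0.66) than those of any other group (0.11 in WT air, 0.18 in Spp1-/- smoke). The log2 difference of WT smoke from WT air was -3.25 ± 0.31 (SE), with adjusted p = 0.00381 (limma). Sftpd stood at 14.49 and 14.94 in WT air, 12.50 and 13.24 in WT smoke, and 12.60 and 11.999 in Spp1-/- smoke. It differed by -1.85 ± 0.34 (adjusted p = 0.0199), and the call was lost without WT smoke replicate 1, the lower of the WT smoke arrays (-1.48, adjusted p = 0.0952).

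The hydrophobic proteins insert into the lipid film. Sftpc encodes surfactant protein C, made in the lung almost wholly by type II cells, and Sftpb encodes surfactant protein B, without which lamellar bodies do not form properly. Sftpc stood at 14.79 and 15.01 in WT air, 11.89 and 12.47 in WT smoke, and 12.18 and 11.49 in Spp1-/- smoke. The difference after smoke was -2.72 ± 0.30 (SE, adjusted p = 0.00513), and the smoke arrays still lay far above the median of all probes. Sftpb was read on a much dimmer probe, at 8.62 and 9.18 in WT air, 7.27 and 7.62 in WT smoke, and 7.47 and 7.27 in Spp1-/- smoke. Here the smoke arrays lay at or just above the median of all probes, where differences may be compressed. The difference was -1.46 ± 0.23 (SE, adjusted p = 0.0142), and -2.12 once the floor was subtracted and 16 added before the log. A dimmer Sftpb probe stood at 7.66 and 8.32 in WT air. Its means were 7.10 in WT smoke and 7.13 in Spp1-/- smoke, below the filter of 7.27. It was thus fitted only through its WT air values, and its difference of -0.89 may be compressed by the floor. That difference was not called (adjusted p = 0.0564, with each probe fitted on its own), which cannot decide whether this probe fell as the brighter one did. The call for Sftpb was also lost without either WT smoke array (adjusted p = 0.0887 without replicate 1 and 0.054 without replicate 2).

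Nkx2-1, the homeodomain transcription factor of lung epithelium, activates the promoters of several surfactant protein genes. It stood at 10.49 and 10.79 in WT air, 8.35 and 8.80 in WT smoke, and 8.35 and 8.20 in Spp1-/- smoke. Its difference after smoke was -2.07 ± 0.19 (SE, adjusted p = 0.00358). A dimmer probe of this gene lay between 7.02 and 7.15 on all arrays, and the mean of the 2 probes gave -1.06, called with adjusted p = 0.00465. RefSeq promoters (GRCm38.p6, 250 bases before to 50 after the start) were given for 7 of the 10 members and not for Sftpc, Sftpd and Napsa. They were searched on both strands for 2 forms of the core bound by NK2 homeodomain factors, CTCAAG and CAAGTG (the end of the first form can overlap the start of the second). Of 32851 promoters of this length, 15.9% held the first form, 13.6% the second and 26.4% either. Sftpa1, Sftpb and Lyz1 held at least 1, and Slc34a2, Abca3, Lamp3 and Nkx2-1 held none. A match is a run of letters and does not show binding. The promoters of Sftpa1 and Sftpb, with matches, and of Slc34a2 and Abca3, without, are shown. They were picked with the differences after smoke known, since Slc34a2 differed about as much as Sftpa1 and Abca3 did not pass. Lyz1, which held a match and did not pass on its brightest probe, is not shown. Whether a match goes with a difference after smoke was not tested. Capitals mark the matches, written 5′ to 3′ on the strand of the gene.
Sftpa1 (chr14:41131538-41131837, plus strand): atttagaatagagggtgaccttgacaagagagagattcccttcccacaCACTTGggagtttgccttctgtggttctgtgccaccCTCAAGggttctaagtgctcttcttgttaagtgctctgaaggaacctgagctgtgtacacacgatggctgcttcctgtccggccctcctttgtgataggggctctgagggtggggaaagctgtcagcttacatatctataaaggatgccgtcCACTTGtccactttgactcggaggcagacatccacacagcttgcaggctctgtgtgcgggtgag
Sftpb (chr6:72304360-72304659, plus strand): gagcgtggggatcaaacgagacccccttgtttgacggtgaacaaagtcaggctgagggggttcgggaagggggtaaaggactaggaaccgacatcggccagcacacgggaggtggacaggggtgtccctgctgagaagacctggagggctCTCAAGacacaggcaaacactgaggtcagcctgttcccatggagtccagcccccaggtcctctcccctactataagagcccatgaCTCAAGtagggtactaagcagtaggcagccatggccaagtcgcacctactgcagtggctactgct
Slc34a2 (chr5:53049103-53049402, plus strand): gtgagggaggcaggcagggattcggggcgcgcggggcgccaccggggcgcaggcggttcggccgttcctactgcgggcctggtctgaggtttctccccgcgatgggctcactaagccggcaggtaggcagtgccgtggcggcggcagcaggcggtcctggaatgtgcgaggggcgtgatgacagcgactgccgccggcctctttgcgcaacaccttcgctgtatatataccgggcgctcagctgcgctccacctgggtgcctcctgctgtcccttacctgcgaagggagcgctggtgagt
Abca3 (chr17:24351773-24352072, plus strand): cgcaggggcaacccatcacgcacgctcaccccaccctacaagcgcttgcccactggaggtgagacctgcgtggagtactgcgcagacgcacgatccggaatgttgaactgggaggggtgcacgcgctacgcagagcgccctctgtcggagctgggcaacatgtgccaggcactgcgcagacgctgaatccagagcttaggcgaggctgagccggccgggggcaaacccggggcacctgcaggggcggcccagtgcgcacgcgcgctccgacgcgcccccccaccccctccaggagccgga
In Sftpa1 the matches began 202, 166 and 14 bases before the start, the first and last of them on the reverse strand, and a TATAAA lay 30 bases before it. In Sftpb both matches were CTCAAG on the forward strand, 100 and 15 bases before the start.

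Among the genes of the lamellar body and of surfactant processing, Napsa encodes napsin A, an aspartic protease that helps to process the precursor of surfactant protein B and is also made in kidney. Its values were 12.89 and 13.36 in WT air, 11.48 and 11.88 in WT smoke, and 11.79 and 11.55 in Spp1-/- smoke, with no overlap between air and smoke. The difference was -1.44 ± 0.22 (SE, adjusted p = 0.0127), and a dimmer probe gave -1.85 (adjusted p = 0.0131). Without WT smoke replicate 1, Napsa no longer passed (-1.24, adjusted p = 0.0767). Abca3 encodes the transporter that loads phospholipid into lamellar bodies. It stood at 12.87 and 13.11 in WT air, 12.42 and 12.65 in WT smoke, and 12.47 and 12.30 in Spp1-/- smoke. Air and smoke arrays did not overlap but lay close together, and the difference of -0.46 ± 0.15 did not pass (adjusted p = 0.0899, 95% interval -0.83 to -0.08). A dimmer Abca3 probe gave -0.40 (adjusted p = 0.191). Lamp3 encodes a lamellar body membrane protein that is also made by mature dendritic cells. Its brighter probe lay at 7.28 and 7.15 in WT air, 6.91 and 6.95 in WT smoke, and 6.97 and 6.98 in Spp1-/- smoke. These values are at the dim end of the scale, and with no filter on dim probes the difference of -0.28 did not pass (adjusted p = 0.0754).

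Slc34a2 encodes the sodium-phosphate cotransporter of the type II cell surface. It stood at 12.30 and 12.31 in WT air, 9.09 and 9.46 in WT smoke, and 9.32 and 9.08 in Spp1-/- smoke. The arrays of air and smoke were about 3 log2 units apart, and the difference of -3.03 ± 0.16 (SE) had the smallest adjusted p of the members, 0.00157. The 95% intervals of Slc34a2 (-3.44 to -2.62) and Abca3 (-0.83 to -0.08) did not meet. A difference between genes in the size of their change was not tested.

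Lyz1 depended on the probe. It encodes a lysozyme that type II cells secrete with surfactant, and its neighbour Lyz2, a near-identical copy, is abundant in macrophages, so the probes may share signal. The brightest Lyz1 probe lay between 15.92 and 15.996 on all arrays, where it ranked between 2 and 7 of 45281 probes. So close to the highest value of 16.01, a change upward could not be seen and a change downward may be compressed. The difference after smoke was 0.01 ± 0.09 (adjusted p = 0.965). The next probe stood at 13.08 and 12.71 in WT air, 11.81 and 11.41 in WT smoke, and 11.70 and 11.43 in Spp1-/- smoke, and it fell by 1.29 on the log2 scale (adjusted p = 0.0167, each probe fitted on its own). The remaining, dim probe gave -0.64 (adjusted p = 0.111). With the mean of the 3 probes the difference was -0.64 and passed (adjusted p = 0.0212). The brightest probe showed no direction, and both others were lower in smoke. The Lyz2 probes did not run alike either. The brightest lay between 15.41 and 15.74, another at 12.12 and 12.14 in WT air and between 13.52 and 13.67 on the smoke arrays, and the last between 11.57 and 12.57 with the groups overlapping.

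**Figure D2:**
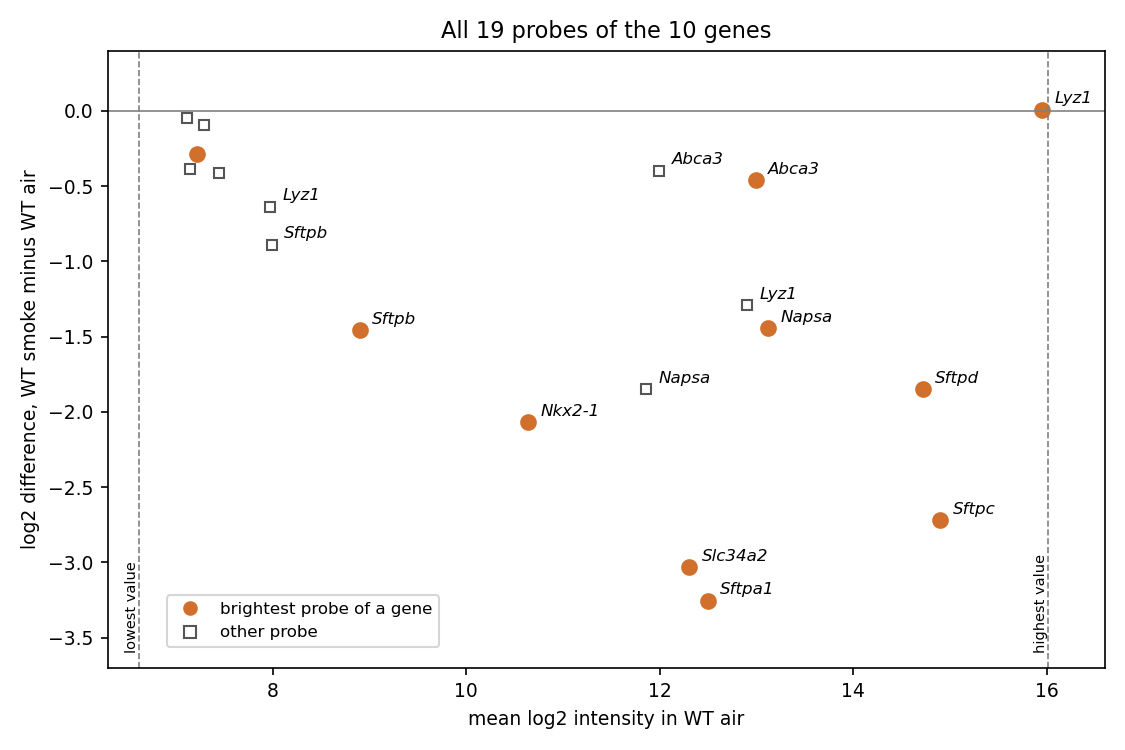
Log2 difference of WT smoke from WT air (y axis) against the mean log2 intensity in WT air (x axis) for all 19 probes of the 10 genes. Filled circles are the brightest probe of each gene and open squares the others. Probes below the filter and the Lyz1 probe near the highest (16.01) lay between -0.41 and 0.01, and the others ran from -0.40 to -3.25.

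The count of called members depended on single arrays. Without WT smoke replicate 1 it was 4 of 9, when 743 of all genes were called in place of 2645, and without WT smoke replicate 2 it was 6, when 925 were called. Sftpa1, Sftpc, Slc34a2 and Nkx2-1 were called with each of the 6 arrays left out in turn. Abca3 was called only without WT air replicate 1 (-0.58, adjusted p = 0.0491).

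Between the genotypes under smoke, none of the 9 tested members differed by limma, and none had an unadjusted p under 0.05. The smallest, 0.151, was that of Sftpd. Among all 12382 genes 0% passed adjustment and 4.36% had an unadjusted p under 0.05. For Sftpd, the log2 difference of Spp1-/- smoke from WT smoke was -0.57 (95% interval -1.43 to 0.29). For Sftpc it was -0.35 (-1.11 to 0.41), for Nkx2-1 -0.30 (-0.79 to 0.20) and for Sftpa1 0.15 (-0.65 to 0.95). The intervals of Slc34a2 (-0.48 to 0.34), Sftpb (-0.67 to 0.52), Napsa (-0.57 to 0.56), Abca3 (-0.53 to 0.22) and Lyz1 (-0.22 to 0.25) also held 0. With 2 arrays a group, the intervals reached from 0.24 to 0.86 log2 units to either side, so genotype differences inside them are not excluded. The intervals are not adjusted for the number of genes, whereas a call is, so they do not give the size that would be called. Elovl6, a gene of surfactant lipid synthesis, differed by 0.63 ± 0.12 (SE) between the genotypes and was not called (limma, unadjusted p = 0.00332, adjusted p = 0.856). Genes of other lists also had an unadjusted p under 0.05 and were not called. Among them were Ccl17 (-0.47), Pdgfra (0.53), Aldh1a1 (0.68) and Ptprc (0.55). Of the tested members, the arrays of the genotypes did not overlap only for Nkx2-1, lower in Spp1-/- cells, where 19.5% of all genes were lower and 18.3% higher without overlap. Its nearest arrays were all but equal (8.3473 in WT smoke and 8.3471 in Spp1-/- smoke).

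Spp1-/- smoke was also set against WT air. Smoke and genotype change together there and cannot be told apart, and the WT air arrays are those of the smoke comparison in WT. Of the 9 tested members 8 were lower and none higher, where 22.6% of all genes were called, 10.5% lower and 12.2% higher. The arrays did not overlap for the same 8, against 26.1% of all genes lower and 35.2% higher without overlap. The log2 difference was -3.10 ± 0.31 (SE, adjusted p = 0.00423) for Sftpa1, -3.10 ± 0.16 (adjusted p = 0.00184) for Slc34a2 and -3.06 ± 0.30 (adjusted p = 0.00384) for Sftpc. The median over the 9 tested members was -2.36, and 0.04 over all genes. Sftpd differed by -2.42, Nkx2-1 by -2.36, Sftpb by -1.53 and Napsa by -1.45. Abca3 passed here at -0.61 (adjusted p = 0.0413), but under 10 of 15 alternative settings it did not. When either Spp1-/- smoke array was left out, fewer members were called, and calls over all genes fell as well.

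**Figure D3:**
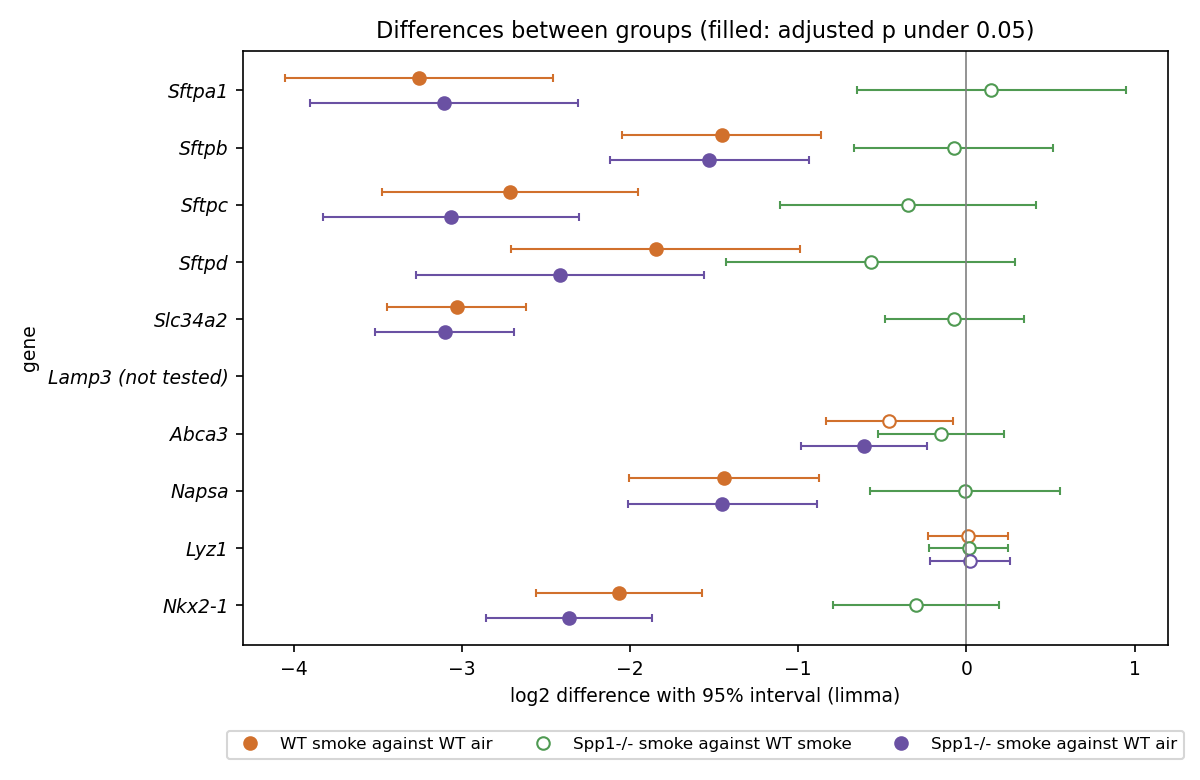
Log2 difference between groups (x axis) with its 95% interval from limma for the tested members (y axis), in 3 comparisons shown by colour. Filled points passed an adjusted p of 0.05. Intervals of the genotype comparison under smoke all held 0, and those against WT air lay under 0 for every tested gene but Lyz1.

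The arrays of a group also differed from each other in a way the members shared. In WT smoke, replicate 2 was higher than replicate 1 for 8 of the 9 tested members, by a median of 0.41 log2 units, against 48.4% of all genes and a median of -0.01. Sftpa1 showed the widest gap at 0.93. In WT air replicate 2 was higher for 8 of 9, by a median of 0.25, against 50.2% of all genes. In Spp1-/- smoke replicate 1 was higher for 8 of 9 and Lyz1 was equal on both, and the median of replicate 2 minus replicate 1 was -0.24. Over all genes there, replicate 2 was higher for 48.2%, with a median of -0.01. Other lists were read in the same way. Among other type II markers, replicate 2 was higher for 13 of 19 in WT smoke (median 0.15) and 6 of 19 in Spp1-/- smoke (median -0.05). Among surfactant lipid genes it was higher for 8 of 15 and 7 of 15. In WT air it was higher for 13 of 19 other type II markers, 13 of 18 club, ciliated and type I genes and 4 of 13 mature dendritic cell genes. In WT smoke, replicate 2 was higher for 15 of 18 club, ciliated and alveolar type I genes and for 14 of 14 endothelial genes, and in Spp1-/- smoke for 2 of 18 and 2 of 14. In WT smoke it was higher for 9 of 14 fibroblast and smooth muscle genes, 11 of 19 pan-epithelial genes and 7 of 14 epithelial transcription factors. It was also higher there for 10 of 13 genes of mature and 10 of 14 of conventional dendritic cells, and for 8 of 20 antigen presenting cell genes. In Spp1-/- smoke the matching counts were 3 of 14 fibroblast and smooth muscle genes, 5 of 19 pan-epithelial genes and 4 of 14 epithelial transcription factors. For mature dendritic cells the count was 9 of 13, for conventional dendritic cells 7 of 14 and for antigen presenting cell genes 15 of 20. Within each group the members are read from the same RNA, so these counts describe 3 pairs of arrays and not independent genes.

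**Figure D4:**
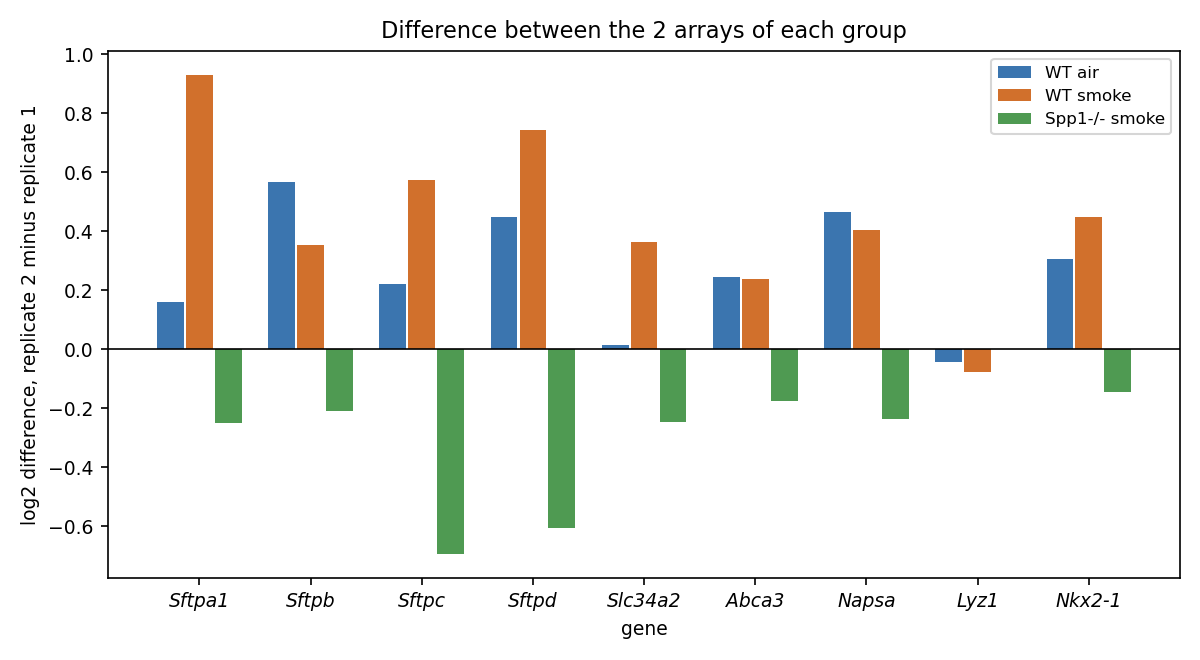
Log2 difference of replicate 2 from replicate 1 (y axis) in each group, for the 9 tested members (x axis). Bars pointed up in both WT groups for every gene but Lyz1, and down in Spp1-/- smoke, where Lyz1 was at 0.

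The members were set beside lists of other genes. Of 19 tested genes on a list of other type II markers, 8 were lower after smoke in WT and none higher (median -0.60). Cxcl15, the chemokine lungkine of lung epithelium, differed by -3.05 (adjusted p = 0.00198), and Hc, the complement component C5, by -2.97 (adjusted p = 0.00315). Cpm, a membrane carboxypeptidase, differed by -2.18, and Scd1, a stearoyl-CoA desaturase, by -1.41. With WT smoke replicate 1 left out, 5 of these 19 were called. Lyz2 and Ctsh, which macrophages also express, are on this list.

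Of 15 tested genes of surfactant lipid synthesis, 2 were called, 1 lower and 1 higher, with a median of -0.03. This is no larger a share than the 21.4% called over all genes. Scd1 was lower, whereas Cds1, a CDP-diacylglycerol synthase, was higher, from 8.78 and 9.27 in WT air to 10.39 and 9.90 in WT smoke (log2 difference 1.12, adjusted p = 0.0276). Elovl6, a fatty acid elongase, gave -0.45 and did not pass (adjusted p = 0.0595), and Abca3 is on this list too. Of these lipid genes, between 1 and 4 were lower and between 0 and 2 higher when each array was left out in turn.

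Among 14 tested transcription factors of lung epithelium, 5 were lower and 1 higher (median -0.25). Nfib, a nuclear factor of lung maturation that mesenchymal cells also express, stood at 11.82 and 11.96 in WT air and at 9.03 and 8.77 in WT smoke, a difference of -2.99 (adjusted p = 0.00157). Hopx, a homeodomain protein of alveolar type I cells, differed by -1.96 and Tead1 by -1.21. Id2, which dendritic cells also express, was the gene that was higher (1.16, adjusted p = 0.00308). Foxa2, which acts beside Nkx2-1 in the lung, lay between 6.90 and 7.01 on all arrays, below the filter. When WT smoke replicate 1 was left out, 2 factors were called lower, and without replicate 2, 3.

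Of 19 tested pan-epithelial genes, 8 were lower and 1 higher (median -0.30), and without either WT smoke array 4 were lower. The keratin gene Krt7 differed by -2.77 (adjusted p = 0.0027), the claudin genes Cldn18 and Cldn3 by -2.47 and -1.84, and Rab25, an epithelial GTPase gene, by -1.88. St14, a membrane protease gene named after its values were seen, was the gene that was higher (0.60, adjusted p = 0.0333). Epcam, a defining epithelial marker, lay between 6.92 and 7.33 on all arrays, near the lowest value. Its highest values were those of WT air, at 7.33 and 7.29.

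Markers of other lung cells were lower beside the members. Of 18 tested club, ciliated and alveolar type I genes 15 were lower and 1 higher (median -2.03), of 14 endothelial genes 12 were lower (median -2.65), and of 14 fibroblast and smooth muscle genes 13 were lower (median -1.78). Aldh1a1, a retinal dehydrogenase of airway epithelium, differed by -3.16, and Emp2, a membrane protein of type I cells, by -3.02, while Akap5 and Hopx gave -2.92 and -1.96. Pdpn, which encodes podoplanin of type I cells and of macrophages and was named after its values were seen, was the gene that was higher (0.97, adjusted p = 0.00807). Tmem100, Emcn, Pecam1 and Tek, all endothelial genes, differed by -3.12, -2.75, -2.54 and -2.29. Bgn, Pdgfra, Col3a1 and Tcf21, genes of mesenchymal cells, differed by -2.76, -2.54, -1.95 and -1.40. Tcf21, at 7.25 and 7.29 in WT smoke, lay at the filter there and was kept through its WT air values (8.73 and 8.61). Its call is among the 13. The counts without WT smoke replicate 1 were 9, 10 and 8. Between the genotypes under smoke, no gene of any of these lists was called. Against WT air, Spp1-/- smoke gave 9 lower of the 19 other type II markers, 7 of the 19 pan-epithelial genes and 15 of the 18 club, ciliated and type I genes. For endothelium it gave 12 of 14 and for fibroblasts and smooth muscle 12 of 14. When either Spp1-/- smoke array was left out, fewer genes of each of these lists, endothelial and fibroblast lists included, were called lower. Calls over all genes also fell.

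**Figure D5:**
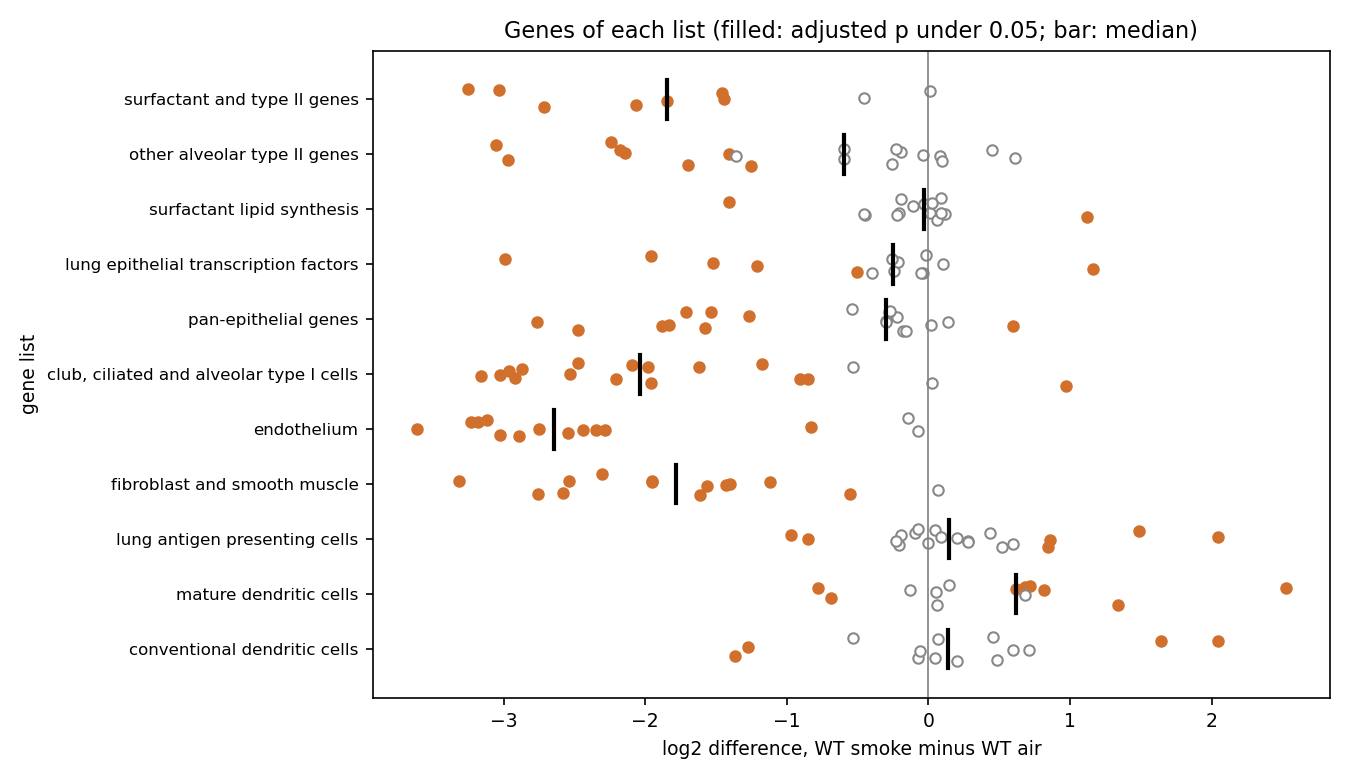
Log2 difference of WT smoke from WT air (x axis) for the tested genes of each list (y axis). Filled points passed an adjusted p of 0.05, open points did not, and black bars are medians. The medians of the surfactant and type II genes (-1.85), of club, ciliated and type I genes (-2.03), endothelium (-2.65) and fibroblasts (-1.78) lay under those of the antigen presenting cell lists (0.15, 0.62 and 0.14). In between lay the medians of other type II markers (-0.60), pan-epithelial genes (-0.30), epithelial transcription factors (-0.25) and surfactant lipid synthesis (-0.03).

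The summed linear intensity of each list, as a share of the sum over the 12382 genes, gives its weight on an array. The 9 tested members made up 0.662% and 0.744% in WT air, 0.386% and 0.410% in WT smoke, and 0.390% and 0.368% in Spp1-/- smoke. Much of this sum is the brightest Lyz1 probe, which lies near the top of the scale. The other 8 made up 0.365% and 0.454% in WT air, 0.0882% and 0.127% in WT smoke, and 0.0994% and 0.0757% in Spp1-/- smoke. With or without Lyz1, the share in air was above that on each of the 4 smoke arrays. Other type II markers held 0.432% and 0.477% in WT air and between 0.310% and 0.361% in smoke. Much of that sum is the brightest probe of Lyz2, which macrophages also express (15.41 to 15.74 on the log2 scale). The share of this list without Lyz2 was not computed. Pan-epithelial genes held 0.118% and 0.122% in air against 0.0806% to 0.0916% in smoke. Club, ciliated and type I genes held 0.806% and 0.924% in WT air and between 0.268% and 0.353% on the smoke arrays. Endothelial genes held 0.239% and 0.326% in air and between 0.045% and 0.0629% in smoke, and fibroblast and smooth muscle genes 0.405% and 0.448% against 0.089% to 0.12%. The antigen presenting cell list held 0.409% and 0.382% in WT air and 0.403% to 0.470% in smoke. The part of other lung cells in the differences of the members was not tested.

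The genes whose profile over the 6 arrays was nearest to the mean profile of the tested members were Ly6d, Eng, Gpr182, Mxra7 and Plat. Likeness was measured as the root mean square difference of values centred per gene. It was 0.08 log2 units for Ly6d, a surface protein of epithelium and lymphoid precursors, and 0.09 for Eng, the endothelial receptor endoglin. It was 0.10 for Gpr182, an endothelial receptor, 0.10 for Mxra7 and 0.13 for Plat, the tissue plasminogen activator. Mxra7 lay at 6.96 and 7.39 in WT smoke and at 7.18 and 7.09 in Spp1-/- smoke. It was kept by the filter through its WT air values (8.93 and 9.38). Nkx2-1 was the member nearest to that profile (0.17), and Lyz1 the farthest from it (0.92). The 6 arrays differ mainly between air and smoke, so many genes come close to this profile.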

How the data were processed

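Per the labels' protocols, biotinylated cRNA for Illumina arrays was prepared from Trizol-extracted RNA with an Ambion MessageAmp kit. The values used were the log2 intensities deposited by the authors for 45281 probes. The sorted columns differed by at most 0.00562, as after quantile normalization. limma is named in the submitters' processing notes with no version, and the sources used here give neither background correction nor offset. A second table of 12 columns was not used, because its column names match no sample's labels, so detection p-values and raw signals were not used. Precision is limited by having 2 arrays in each group.

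Gene symbols came from the platform annotation and were brought up to date through Entrez identifiers (34807 of 34885 probes with 1 symbol). Of the rest, 18 had several symbols and 10378 were not named here. Each gene was read from its brightest probe, and genes in the brighter 50% of probes were kept. limma 3.58.1 in R 4.3.3 was fitted with 1 coefficient per group over all 6 arrays and tested on simulated data. The smallest p that an exact permutation test of 2 arrays against 2 allows is 0.333, and no such test was run. Promoters came from RefSeq, build GRCm38.p6.

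The members and lists were chosen with earlier results of these data known. All members were named, up to 4 genes of smallest p in each other list, the markers Ptprc, Itgax and Cd74, and the 5 genes nearest in profile. Itgam, Cd209a, Flt3, Xcr1, Epcam, Foxa2, Lyz2, Ctsh, St14 and Pdpn fall outside this rule and were named after their values were seen. The alternatives tried are listed with their effect in the closing section. The fit of single probes was chosen after the data had been seen.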

Additional observations from a re-analysis of the deposited data

How the results depend on the processing

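The number of called members lay between 6 and 8 for WT smoke against WT air under the other settings that kept every array, and between 4 and 8 with each array left out in turn. For Spp1-/- smoke against WT air it lay between 7 and 9 and between 4 and 8. For the genotypes under smoke it was 0 throughout. The members tested were 9, except 8 with the brighter 25% of probes, which left out Sftpb, and 10 with no filter. The settings were a filter that kept all or the brighter 25% of probes, averaging over probes, centring on the kept genes, a floor subtracted and 16 added, a fit restricted to the compared groups, a block for the replicate number, weights per array, and a prior that was robust and followed intensity. With a replicate block, 7, 0 and 7 members were called. Deviations of same-numbered arrays correlated with r = 0.14, -0.08 and -0.03 between the groups, so the numbers were not taken to pair the arrays. Lyz1, near 0 on its brightest probe, was lower with the mean of its probes (-0.64 for WT smoke and -0.64 for Spp1-/- smoke against WT air) and on its next brightest probe (-1.29 and -1.33). Over all genes, WT smoke against WT air gave 2645 calls, 1489 with only the groups compared, and 743 to 3858 with an array left out. Spp1-/- smoke against WT air gave 2804, 1842, and 673 to 4035. The genotypes under smoke gave 0, and 6 to 9 with the brighter 25% of probes, a trend, array weights, only the groups compared or a WT air array left out. Normalization of raw signals, a filter on detection p and a slide block were not run, because the columns of that table could not be matched to samples and no slide is given. Dim probes near the floor of 6.62 limit what can be read for Lamp3, Sftpb and Epcam.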

Other observations

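Lamp3 is also a gene of mature dendritic cells, and lists of dendritic cell genes were read on the same arrays. Of 13 tested genes of mature dendritic cells, 6 were higher after smoke in WT and 2 lower, with a median log2 difference of 0.62 (limma, adjusted p under 0.05), where 11.1% of all genes were higher and 10.3% lower. Ccl17, a chemokine of mature dendritic cells, stood at 9.84 and 9.53 in WT air and 12.24 and 12.18 in WT smoke (difference 2.53, adjusted p = 0.00157). Cd83 (0.72) and Relb (0.62) were higher and Cd40, a co-stimulatory receptor, was lower (-0.78). Leaving out WT smoke replicate 1 left 2 genes higher and none lower, and leaving out replicate 2 left 1 each way.

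Of 14 tested genes of conventional dendritic cells, 2 were higher and 2 lower (median 0.14), near the 11.1% and 10.3% of all genes. Itgae, the CD103 integrin of lung dendritic cells and some T cells, stood at 9.003 and 8.23 in WT air and 10.54 and 10.78 in WT smoke (difference 2.05, adjusted p = 0.00899), and Irf4 differed by 1.65. Itgb7, the integrin chain that pairs with Itgae, differed by -1.37, and H2-DMb2, of MHC class II loading, by -1.27. Of 20 tested antigen presenting cell genes, 4 were higher and 2 lower (median 0.15), where 11.1% and 10.3% of all genes were. Tyrobp, a signalling adaptor of myeloid cells, was among those higher (1.49, adjusted p = 0.00175), with Itgax at 0.84, and Cd74 was lower at -0.97. Leaving out either WT smoke array left 1 of these 20 higher and none lower, and of the conventional dendritic cell genes 1 each way.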
